A study of Homo sapiens with 8 samples.

Results

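The genes described here make and load class I HLA molecules, the surface proteins that show peptides from inside the cell to CD8 T cells. They were chosen by name, with earlier results of these data known, from the 19892 genes of the deposited table. They are 9 genes of class I antigen presentation. The heavy chain genes are HLA-B, HLA-C, HLA-E and HLA-F, and the light chain gene is B2M. The others are the peptide transporter genes TAP1 and TAP2, the chaperone gene TAPBP (tapasin) and the trimming enzyme gene ERAP1. All 9 were in the table and all 9 passed the filter on low counts in each comparison.

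A class I molecule is a heavy chain paired with beta-2-microglobulin, and it leaves the endoplasmic reticulum (ER) once it holds a peptide. Peptides are cut in the cytosol, carried into the ER by the TAP1 and TAP2 dimer, trimmed by ERAP1 and fitted into the groove with the help of tapasin. These genes are known as targets of interferon and NF-kB signalling, and ADAR1, encoded by ADAR, is known for changing adenosines of double-stranded RNA into inosines, which keeps such RNA from being sensed.

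The cells were MDA-MB-231, an established human line from a triple-negative breast tumour, given an siRNA against ADAR1 or a control siRNA. The groups were ADAR1 siRNA Input, control siRNA Input, ADAR1 siRNA Ribo-seq and control siRNA Ribo-seq, with 2 libraries each and 8 in all. Input libraries hold RNA fragments of 40 to 60 nucleotides and stand for RNA, and Ribo-seq libraries hold fragments of 30 nucleotides, the size that a ribosome protects. The work rests on 1 cell line, the sources used here give neither the siRNA sequences nor the times, and whether the replicates came from different cultures is not said. A p-value here therefore weighs differences against library spread that may be technical. They are bulk lysates, so a change in fewer cells and a smaller change in all of them cannot be told apart.

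Estimated counts totalled 16364576 and 17153716 in ADAR1 siRNA Input, against 15732757 and 16819821 in control siRNA Input. In Ribo-seq they totalled 14646868 and 14875465 with ADAR1 siRNA, against 11975081 and 10492223 with control siRNA. ADAR itself stood at 14.8 and 30.6 TPM (a level scaled by gene length and library depth) in ADAR1 siRNA Input, against 106 and 110.2 TPM in control siRNA Input, and at 1.55 and 8.41 TPM in ADAR1 siRNA Ribo-seq, against 19.1 and 20.3 TPM in control siRNA Ribo-seq. The log2 fold change of ADAR was -2.26 ± 0.32 in RNA (edgeR adjusted p = 0.0527) and -2.04 ± 0.47 in footprints (edgeR adjusted p = 0.0485). All 4 ADAR1 siRNA libraries lay below their controls, and replicate 1 kept less ADAR than replicate 2 in each assay. Of the markers of this line, VIM, CD44, AXL, FN1 and MSN were at 20.2 TPM or more in every library, and ESR1, PGR and CDH1 were at 0.328 TPM or less. The other 2 genes of the list of markers set as low were present, ERBB2 at 5.90 to 35.5 TPM and EPCAM at 11.7 to 21.0 TPM. The immune markers CD74 and CD68 were present, at up to 1560 and 232 TPM, whereas the other 7 of the 9 reached at most 4.99 TPM (LYZ) and MS4A1 was at 0 in all 8 libraries. Summed over the 9, immune markers ran from 1431 to 1667 TPM in ADAR1 siRNA Ribo-seq, against 1143 to 1174 TPM in control siRNA Ribo-seq, and from 577 to 672 TPM in ADAR1 siRNA Input, against 694 to 719 TPM in control siRNA Input. CD74 and CD68 carried these sums, and their part in the results was not tested.

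Ribosome footprints of 5 of the 9 genes rose with ADAR1 siRNA and those of the other 4 did not pass the test. Together the 9 genes took 0.704% and 0.668% of all Ribo-seq counts with ADAR1 siRNA, against 0.437% and 0.428% with control siRNA. Most of these were B2M counts, 65971 and 68309 with ADAR1 siRNA, against 34168 and 29440 with control siRNA. These B2M counts are not scaled, and Ribo-seq totals were larger with ADAR1 siRNA. In Input the 9 genes took 0.153% and 0.142% with ADAR1 siRNA, against 0.143% and 0.143% with control siRNA. The 5 genes were HLA-B, HLA-C, HLA-F, B2M and ERAP1, whose footprints rose by 1.63-fold to 1.79-fold. Some reads were divided between the heavy chain genes, so HLA-B, HLA-C and HLA-F are not fully separate results. The RNA of none of the 9 passed the test.

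**Figure D1:**
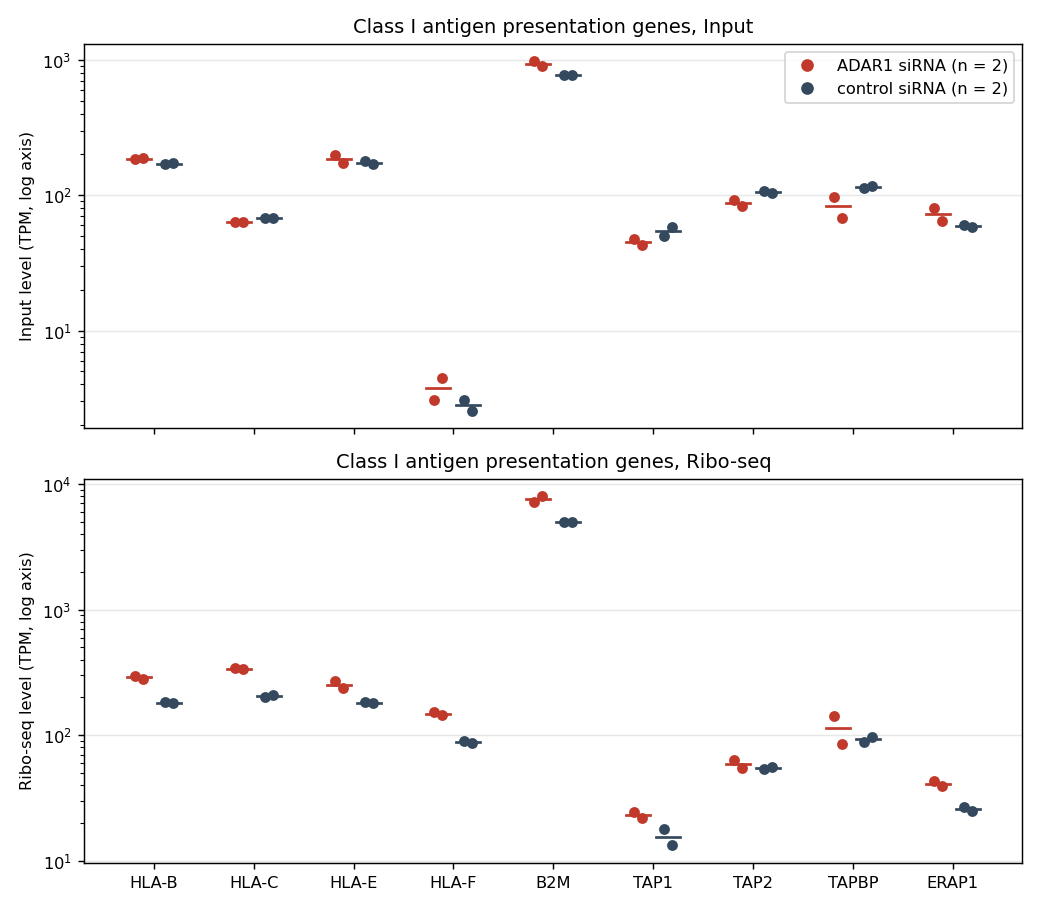
Level of each gene in every library, in TPM on a log axis, for Input (upper) and Ribo-seq (lower); points are libraries, bars are means of the 2 libraries of a group. In Ribo-seq the ADAR1 siRNA points lie above the control points for HLA-B, HLA-C, HLA-E, HLA-F, B2M, TAP1 and ERAP1, and overlap them for TAP2 and TAPBP.

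The classical heavy chains, HLA-B and HLA-C, present peptides to CD8 T cells. HLA-B (NCBI gene 3106, chromosome 6, 31353875 to 31357179 of GRCh38.p14) had 297 and 280.3 TPM of footprints with ADAR1 siRNA, against 183 and 180.1 TPM with control siRNA. HLA-C (chromosome 6, 31268749 to 31272092) had 344 and 336 TPM with ADAR1 siRNA, against 201 and 211 TPM with control siRNA. For both genes the groups were well apart and replicates of a group lay close together. In edgeR (quasi-likelihood F test, p adjusted by Benjamini-Hochberg over all genes tested), HLA-B rose by a log2 fold change of 0.77 ± 0.15 (SE, adjusted p = 0.0381) and HLA-C by 0.82 ± 0.14 (adjusted p = 0.0334). These folds come from scaled counts and differ somewhat from the ratios of TPM.

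The non-classical heavy chains bind other receptors. HLA-E, which shows leader peptides of other class I chains to NKG2 receptors on natural killer cells, had 269 and 238 TPM of footprints with ADAR1 siRNA, against 183 and 182 TPM with control siRNA. Its groups did not overlap, but its log2 fold change of 0.58 ± 0.16 did not pass (edgeR adjusted p = 0.0647). HLA-F, a chain of limited surface expression, had 152 and 144 TPM with ADAR1 siRNA, against 90.0 and 86.2 TPM with control siRNA, and rose by 0.84 ± 0.16 on the log2 scale (edgeR adjusted p = 0.0346). HLA-F footprint counts were 33.5% and 33.4% of those of HLA-B with ADAR1 siRNA, and 32.4% and 31.1% with control siRNA. In Input HLA-F counts were 1.52% and 2.59% of those of HLA-B with ADAR1 siRNA, and 1.90% and 1.58% with control siRNA. How many HLA-F footprints are reads shared with other heavy chains was not tested. HLA-E lies at 30489509 to 30494194 and HLA-F at 29723434 to 29738532 of chromosome 6.

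Because the heavy chain genes resemble each other, their counts were also summed and the table was fitted again with the sum in place of the 4 rows. The sum had 26354 and 23124 unscaled footprint counts with ADAR1 siRNA, against 12337 and 10546 with control siRNA, whose libraries had smaller totals. Scaled for depth, the sum rose by 0.74 ± 0.14 on the log2 scale, or 1.67-fold (edgeR adjusted p = 0.0377). In RNA the sum had 5783 and 5904 estimated counts with ADAR1 siRNA, against 5346 and 5588 with control siRNA, a log2 fold change of 0.06 ± 0.06 (edgeR adjusted p = 0.564). A read placed on the wrong one of these 4 genes cannot change the sum, while one shared with a further class I row can.

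B2M (chromosome 15, 44711517 to 44718145) encodes the light chain shared by all class I molecules. Its footprints stood at 7227 and 8016 TPM with ADAR1 siRNA, against 4956 and 5023 TPM with control siRNA, and rose by 0.70 ± 0.12 on the log2 scale (edgeR adjusted p = 0.0334). In the order of mean levels over all genes with a footprint, B2M was number 8 with ADAR1 siRNA and number 16 with control siRNA. The ratio of B2M to the summed heavy chains, in TPM of footprints, was 6.81 and 8.03 with ADAR1 siRNA and 7.55 and 7.62 with control siRNA, so the groups overlapped in this ratio.

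The transporter genes lie in the class II region of the same locus, TAP2 at 32821831 to 32838739 and TAP1 at 32845209 to 32853704. TAP1 footprints stood at 24.5 and 21.9 TPM with ADAR1 siRNA, against 18.0 and 13.3 TPM with control siRNA. The log2 fold change of 0.51 ± 0.18 did not pass (edgeR adjusted p = 0.124). TAP2 footprints stood at 63.1 and 54.4 TPM with ADAR1 siRNA, against 54.2 and 55.8 TPM with control siRNA, and the log2 fold change was 0.22 ± 0.16 (edgeR adjusted p = 0.446). The TAP2 groups overlapped in TPM, though not in scaled counts.

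TAPBP encodes tapasin, which bridges the heavy chain and the transporter. Its footprints stood at 143 and 84.5 TPM with ADAR1 siRNA, against 89.1 and 97.4 TPM with control siRNA. Replicate 1 with ADAR1 siRNA was the highest library and replicate 2 the lowest, and the log2 fold change of 0.40 ± 0.25 did not pass (edgeR adjusted p = 0.362). Without ADAR1 siRNA Ribo-seq replicate 1 it turned to -0.12, and without replicate 2 it was 0.73 and passed (edgeR adjusted p = 1.6e-06).

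ERAP1 (chromosome 5, 96760813 to 96935854), the aminopeptidase that shortens peptides in the ER, had 43.3 and 39.2 TPM of footprints with ADAR1 siRNA, against 27.1 and 25.0 TPM with control siRNA. It rose by 0.73 ± 0.16 on the log2 scale (edgeR adjusted p = 0.0443). Its groups did not overlap. In the RefSeq annotation its span overlaps those of CAST and ERAP2, and the sources used here do not say whether counting used strand.

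Read together, footprints of 5 of the 9 genes rose, 0 fell and 4 did not pass, where 1.88% of the 12000 genes tested in Ribo-seq rose. The 9 genes were chosen with earlier results of these data known, and their heavy chain rows share reads. Set beside all genes, their counts and medians are therefore a description. Of all genes 3.54% passed in either direction; 225 rose and 200 (1.67%) fell, with upper-quartile scaling 311 and 176, and with DESeq2 391 and 587. All 9 log2 fold changes were above 0, as were 54.4% of those of all genes. The median was 0.70 over the 9 genes and 0.05 over all genes. Scaled counts of the groups did not overlap for 8 of the 9, all higher with ADAR1 siRNA, against 30.1% of all genes higher and 26.2% lower. Before adjustment, 7 members had p under 0.05, all higher, against 12.6% of all genes higher and 11.3% lower. The calls rested on both control libraries. How many genes passed moved with the library left out, among the 9 and among all genes. Such a fit leaves 1 library in a group, so only the median log2 fold change of the 9 is given here. Dropping control siRNA Ribo-seq replicate 1 gave 0.71, and dropping its replicate 2 gave 0.66. Dropping ADAR1 siRNA Ribo-seq replicate 1 gave 0.58, and dropping its replicate 2 gave 0.73. With all libraries, 4 of the 9 passed with limma-voom and 6 with DESeq2, where 250 and 978 of all genes passed. With limma on log2(TPM + 1) and on log2(TPM + 0.1) 0 of the 9 passed (7 before adjustment in each), where 12 and 11 of all genes passed.

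**Figure D2:**
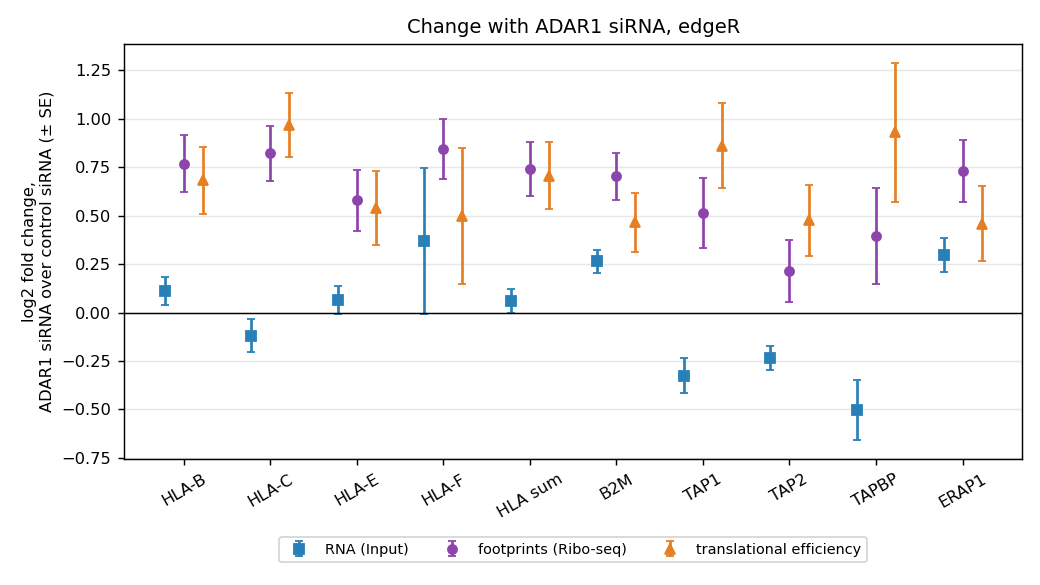
Log2 fold change of ADAR1 siRNA over control siRNA for each gene and for the sum of the 4 HLA genes, by edgeR, with standard errors; squares are RNA, circles footprints and triangles translational efficiency. Circles and triangles lie above 0 for all genes, whereas squares run from -0.50 (TAPBP) to 0.37 (HLA-F).

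The promoters of these genes are shown because interferon and NF-kB are known inputs to class I genes. The RNA of none of the 9 genes passed in the main edgeR fit. Whether these promoters have a part in the footprint changes was not tested. The RefSeq promoter table (GRCh38.p14) held 10 promoters of 8 of the 9 genes. The 250 bases before each start site were searched on both strands for 2 forms of the interferon-stimulated response element, the shorter GAANNGAAA and a longer one (GAAA, any 2 bases, GAAA), and for the NF-kB (kB) consensus. Capitals in the lines that follow mark the matches, which may overlap each other, and each line reads 5′ to 3′ on the gene's own strand.
HLA-B, chr6:31357316-31357366, minus strand: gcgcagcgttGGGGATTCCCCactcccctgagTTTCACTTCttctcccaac
HLA-C, chr6:31272225-31272274, minus strand: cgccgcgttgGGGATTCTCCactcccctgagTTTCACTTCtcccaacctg
HLA-F, chr6:29723268-29723297, plus strand: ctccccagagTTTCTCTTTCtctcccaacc
B2M, chr15:44711363-44711411, plus strand: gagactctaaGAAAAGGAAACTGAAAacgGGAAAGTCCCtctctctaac
TAP1, chr6:32853757-32853848, minus strand: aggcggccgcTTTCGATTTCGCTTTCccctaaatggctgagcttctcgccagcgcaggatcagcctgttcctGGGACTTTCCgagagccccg
TAP2, chr6:32838778-32838812, minus strand: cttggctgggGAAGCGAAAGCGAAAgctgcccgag
TAPBP, chr6:33314079-33314144, minus strand: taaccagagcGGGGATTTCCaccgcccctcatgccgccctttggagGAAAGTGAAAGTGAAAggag
ERAP1, chr5:96807999-96808028, minus strand: gccttagccaGGGGCTTCCCcgcctgccgc
ERAP1, chr5:96814307-96814335, minus strand: tcttgcataaTTTCCTTTCttttagtgtg

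HLA-B and HLA-C showed the same arrangement, a kB match followed by a reverse-strand match to the shorter interferon letters. Counted from the start site, that match lay at -155 to -147 in HLA-B and at -151 to -143 in HLA-C. HLA-F had a reverse-strand match to the longer letters at -156 to -147, and no kB match. B2M, TAP1 and TAPBP each had a kB match and 2 overlapping matches to the longer letters. Of the 2 TAP1 promoters 1 had these, and the other, which is not printed, had no interferon or kB match. TAP2 had both interferon forms, overlapping, and no kB match, and of the 2 ERAP1 promoters 1 had a kB match and the other the shorter interferon letters.

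The kB consensus was present in 6 of the 10 promoters, against 9.96% of the 35116 promoters in the table. The shorter interferon letters were present in 4 of the 10, against 6.56%, and the longer ones in 5 of the 10, against 3.02%. The longer letters were added after the matches to the shorter ones had been seen. A match is a description of letters. Each of the 8 genes with a promoter had an interferon match of 1 form or the other. Such a match therefore cannot separate genes whose footprints rose from genes whose footprints did not pass.

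RNA values of the members differed in both directions, and none passed the test with edgeR. B2M RNA stood at 972 and 896 TPM with ADAR1 siRNA, against 770.0 and 766 TPM with control siRNA, a log2 fold change of 0.26 ± 0.06 (edgeR adjusted p = 0.0816). ERAP1 RNA stood at 80.0 and 64.9 TPM with ADAR1 siRNA, against 60.5 and 58.3 TPM with control siRNA (0.30 ± 0.09, edgeR adjusted p = 0.116). HLA-B RNA stood at 184 and 188 TPM with ADAR1 siRNA, against 169 and 172 TPM with control siRNA (0.11 ± 0.07, edgeR adjusted p = 0.363). For these 3 genes the ADAR1 siRNA libraries lay above the controls.

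The transporter and tapasin genes had lower RNA values with ADAR1 siRNA, without passing the test. TAP1 RNA stood at 47.1 and 42.7 TPM with ADAR1 siRNA, against 50.4 and 57.8 TPM with control siRNA (-0.33 ± 0.09, edgeR adjusted p = 0.104). TAP2 RNA stood at 91.8 and 83.4 TPM with ADAR1 siRNA, against 107 and 104 TPM with control siRNA (-0.23 ± 0.06, edgeR adjusted p = 0.0972). TAPBP RNA stood at 96.8 and 68.4 TPM with ADAR1 siRNA, against 113 and 117 TPM with control siRNA (-0.50 ± 0.15, edgeR adjusted p = 0.123). All 3 genes had groups that did not overlap. TAPBP RNA moved with the library: its log2 fold change was -0.78 when ADAR1 siRNA Input replicate 1 was left out and -0.27 when replicate 2 was, and it passed in both of these fits.

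HLA-C RNA stood at 63.2 and 63.3 TPM with ADAR1 siRNA, against 68.0 and 67.9 TPM with control siRNA, also without overlap (-0.12 ± 0.08, edgeR adjusted p = 0.413). HLA-E RNA stood at 197 and 172 TPM with ADAR1 siRNA, against 179 and 169 TPM with control siRNA, and the groups overlapped (0.07 ± 0.07, edgeR adjusted p = 0.594). HLA-F RNA was scarce, with 28 and 53 estimated counts with ADAR1 siRNA, against 32.0 and 29 with control siRNA. Its log2 fold change of 0.37 ± 0.38 rested on ADAR1 siRNA Input replicate 2, without which it was -0.14 (edgeR adjusted p = 0.575 with all libraries).

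In RNA 0 of the 9 genes passed in the main edgeR fit and 0 with limma-voom, and 1, TAPBP, passed with DESeq2. With edgeR and a replicate block 2 passed, TAPBP and ERAP1. Of all 12644 genes tested 0.253% passed with edgeR, 0.0791% higher and 0.174% lower (10 and 22 genes, against 5 and 6 with upper-quartile scaling). Before adjustment, 2 members were higher (B2M, ERAP1) and 3 lower (TAP1, TAP2, TAPBP) at p under 0.05, against 11.8% and 13.5% of all genes. Log2 fold changes were above 0 for 5 of the 9 and for 50.6% of all genes. Groups did not overlap for 3 members that were higher and 4 that were lower with ADAR1 siRNA, against 28.5% and 29.7% of all genes. The median RNA change over the 9 was 0.07 with all Input libraries and ran from -0.14 to 0.10 without 1 of them.

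Translational efficiency (TE) is the footprint level per RNA level, and in the main edgeR fit no member passed the test of its change. The authors' deposited table gives HLA-C a TE of 5.44 and 5.31 with ADAR1 siRNA, against 2.96 and 3.11 with control siRNA. The authors' deposited table gives HLA-B a TE of 1.61 and 1.49 with ADAR1 siRNA, against 1.08 and 1.05 with control siRNA. In the interaction of assay and siRNA fitted to counts, the log2 change was 0.97 ± 0.17 for HLA-C (edgeR adjusted p = 0.0534) and 0.68 ± 0.17 for HLA-B (edgeR adjusted p = 0.0639). For the sum of the 4 heavy chains it was 0.71 ± 0.17 (edgeR adjusted p = 0.0602).

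For the transporter genes TAP1 and TAP2, both ADAR1 siRNA values lay above both control values. The authors' deposited table gives TAP1 a TE of 0.519 and 0.514 with ADAR1 siRNA, against 0.357 and 0.230 with control siRNA. The authors' deposited table gives TAP2 a TE of 0.687 and 0.652 with ADAR1 siRNA, against 0.506 and 0.536 with control siRNA. The log2 change in the fitted interaction was 0.86 ± 0.22 for TAP1 (edgeR adjusted p = 0.0641) and 0.48 ± 0.19 for TAP2 (edgeR adjusted p = 0.162).

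The authors' deposited table gives TAPBP a TE of 1.48 and 1.24 with ADAR1 siRNA, against 0.790 and 0.832 with control siRNA (fitted log2 change 0.93 ± 0.36, edgeR adjusted p = 0.158). B2M had a TE of 7.43 and 8.94 with ADAR1 siRNA, against 6.44 and 6.56 with control siRNA, in the authors' deposited table (0.47 ± 0.15, edgeR adjusted p = 0.109). HLA-E had a TE of 1.37 and 1.38 with ADAR1 siRNA, against 1.02 and 1.08 with control siRNA, in the authors' deposited table (0.54 ± 0.19, edgeR adjusted p = 0.129). For these 3 genes both ADAR1 siRNA values lay above both control values. ERAP1 had a TE of 0.541 and 0.605 with ADAR1 siRNA, against 0.448 and 0.428 with control siRNA, in the authors' deposited table (0.46 ± 0.19, edgeR adjusted p = 0.195). HLA-F had a TE of 49.9 and 32.3 with ADAR1 siRNA, against 29.1 and 33.7 with control siRNA, in the authors' deposited table (0.50 ± 0.35, edgeR adjusted p = 0.433), and it was the member whose TE groups overlapped.

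**Figure D3:**
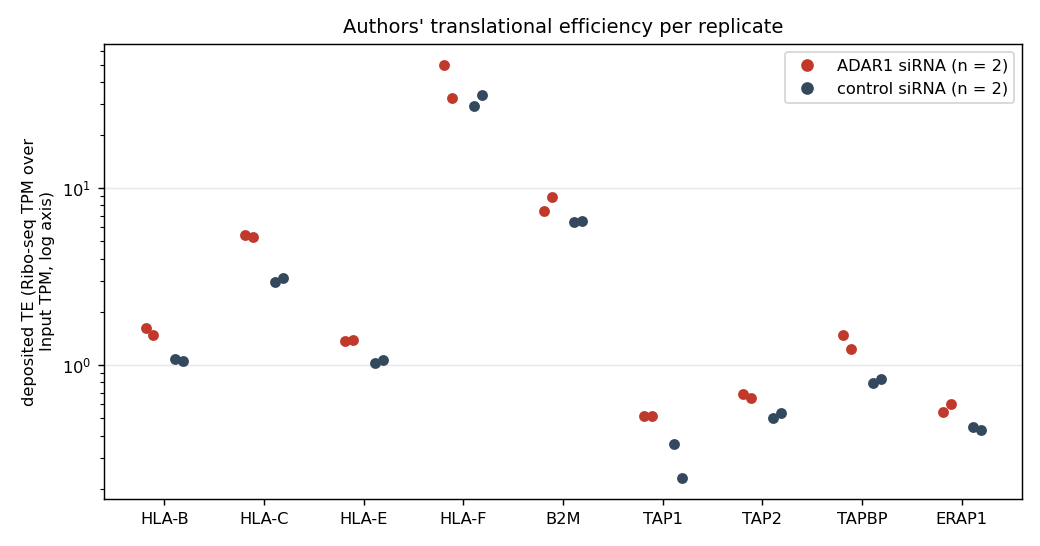
The authors' deposited TE (Ribo-seq TPM over Input TPM, log axis) of each gene in each replicate; points are replicates. The ADAR1 siRNA points lie above the control points for 8 of the 9 genes, HLA-F being the exception.

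In TE 0 of the 9 genes passed in the main edgeR fit and 0 with limma-voom. With DESeq2 5 passed, where 982 of all genes passed. With edgeR and a replicate block 3 passed, where 715 of all genes passed. Of the 12953 genes tested 0.0463% passed with edgeR, 0.0154% higher and 0.0309% lower. Before adjustment, 8 members had p under 0.05, all higher with ADAR1 siRNA, against 13.2% of all genes higher and 9.48% lower. All 9 log2 changes were above 0, as were 57.3% of those of all genes. The median log2 change was 0.54 over the members and 0.09 over all genes. TE groups did not overlap for 8 of the 9, all higher, against 24.6% higher and 28.3% lower of the genes with a TE in all 4 columns. The median over the members was 0.39 without ADAR1 siRNA Ribo-seq replicate 1 and 0.71 without replicate 2. Leaving out any other library gave a median of 0.43 to 0.63.

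Levels of the members spanned a wide range. In control siRNA Input the order of mean TPM was B2M (768), HLA-E (174), HLA-B (170.3), TAPBP (115), TAP2 (106), HLA-C (67.9), ERAP1 (59.4), TAP1 (54.1) and HLA-F (2.82). HLA-E and HLA-B were the neighbours in this order that did not differ beyond their spread. With ADAR1 siRNA the Input order was B2M (934), HLA-B (186), HLA-E (184), TAP2 (87.6), TAPBP (82.6), ERAP1 (72.4), HLA-C (63.2), TAP1 (44.9) and HLA-F (3.75), where HLA-B and HLA-E, TAP2 and TAPBP, and TAPBP and ERAP1 overlapped.

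Footprints gave another order. With ADAR1 siRNA it was B2M (7621), HLA-C (340), HLA-B (288), HLA-E (253), HLA-F (148), TAPBP (114), TAP2 (58.7), ERAP1 (41.3) and TAP1 (23.2). With control siRNA it was B2M (4990), HLA-C (206), HLA-E (182), HLA-B (181), TAPBP (93.3), HLA-F (88.1), TAP2 (55.0), ERAP1 (26.0) and TAP1 (15.6), with HLA-E and HLA-B, and TAPBP and HLA-F, overlapping. TAPBP replicate 2 with ADAR1 siRNA, at 84.5 TPM, lay below the HLA-F libraries of its group and above those of TAP2.

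HLA-C and HLA-F were the genes that changed place most between the assays. HLA-C held 11.0% and 11.7% of the estimated counts of the 4 heavy chain genes in ADAR1 siRNA Input and 12.7% and 13.0% in control siRNA Input, but 34.4% and 35.8% in ADAR1 siRNA Ribo-seq and 32.5% and 33.9% in control siRNA Ribo-seq. For HLA-F the share was 0.484% and 0.898% in ADAR1 siRNA Input and 0.599% and 0.519% in control siRNA Input, but 9.83% and 9.85% in ADAR1 siRNA Ribo-seq and 9.45% and 8.90% in control siRNA Ribo-seq. Both genes thus took a larger share of heavy chain footprint counts than of heavy chain RNA counts in every library. These counts are not scaled for length. The TPM ratio of HLA-C to HLA-B was 0.344 and 0.336 in ADAR1 siRNA Input, against 0.402 and 0.396 in control siRNA Input, and 1.16 and 1.20 in ADAR1 siRNA Ribo-seq, against 1.10 and 1.17 in control siRNA Ribo-seq.

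**Figure D4:**
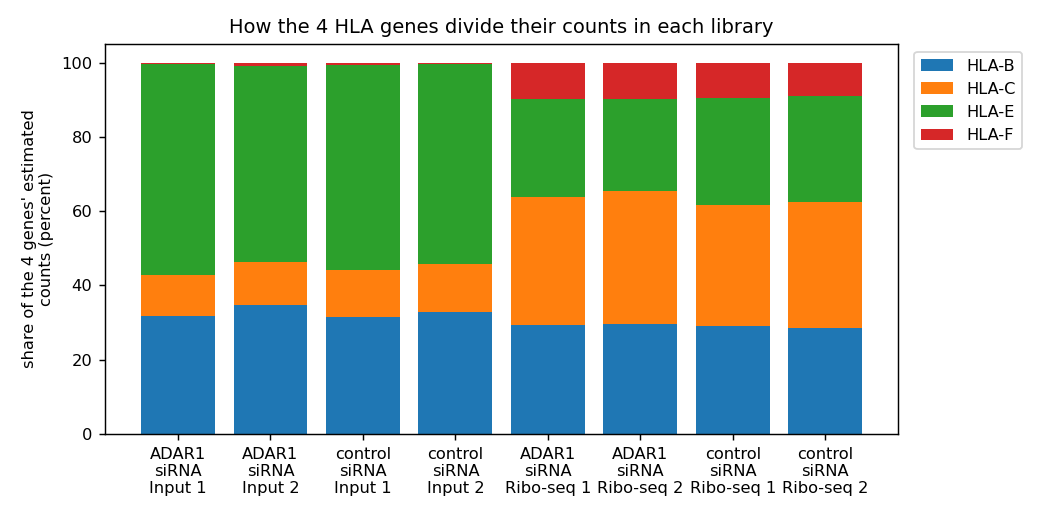
Share of each heavy chain gene in the summed estimated counts of the 4 genes, in percent, for every library. HLA-C and HLA-F take larger shares in the Ribo-seq libraries than in the Input libraries with either siRNA, and HLA-E a smaller one.

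The TE of HLA-F has few RNA counts under it. Count per TPM, relative to HLA-B, was 0.916 to 1.09 for HLA-F in Input and 0.649 to 0.657 in Ribo-seq, for HLA-E it was 1.66 in Input and 0.990 in Ribo-seq, and for B2M it was 1.09 in Input and 0.350 in Ribo-seq, so the 2 assays were scaled by unlike lengths. TE levels are for that reason compared between siRNAs within a gene. A gene's share in Input and in Ribo-seq also carries such differences in length, which varied between genes. For HLA-C, mean count per TPM relative to HLA-B was 1.0039 in Input and 1.0107 in Ribo-seq. For HLA-F and for HLA-E it was lower in Ribo-seq than in Input. The share of a gene depends on the lengths of the other heavy chain genes too. The cause of these differences in share was not tested.

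Some reads were divided between genes. TAP1 and TAP2 each had fractional counts in 4 of 4 Ribo-seq libraries, while their sum was whole, within 0.02, in 4 of 4. The sum of the 4 heavy chain genes was whole in 1 of 4 Ribo-seq libraries and that over all 6 class I HLA rows in 4 of 4. Values of a single heavy chain or transporter gene are therefore less certain than their sums. The fit of the line's own alleles to the reference sequence was not tested.

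The rest of the pathway was described by lists, also chosen with earlier results of these data known. Of 4 chaperones of the loading complex, footprints of 2 rose, CALR (calreticulin, 0.66 ± 0.12, edgeR adjusted p = 0.0346) and PDIA3 (ERp57, 0.58 ± 0.13, edgeR adjusted p = 0.0460), and CANX (calnexin) had 0.57 ± 0.14 without passing (edgeR adjusted p = 0.0505). The median over the 4 was 0.62 for footprints, 0.17 for RNA and 0.43 for TE.

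Of 5 subunits of the immunoproteasome and its PA28 activator, 0 passed in Ribo-seq with edgeR (1 before adjustment) and the median footprint change was 0.07. PSMB8, a catalytic subunit, had the smallest p (-0.36 ± 0.15, edgeR adjusted p = 0.185). Of 6 further peptidases, TPP2, a cytosolic peptidase, fell by 0.90 ± 0.18 on the log2 scale (edgeR adjusted p = 0.0427), 0 rose, and ERAP2, the partner of ERAP1, had 0.85 ± 0.26 (edgeR adjusted p = 0.0896).

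Of 15 transcriptional regulators of the class I genes 0 passed in Ribo-seq with edgeR (6 before adjustment), and the median footprint change was -0.17. IRF9, a subunit of an interferon-activated transcription factor, had -0.58 ± 0.21 (edgeR adjusted p = 0.128). Of 10 class I-like and stress ligand genes 7 were tested and 0 passed with edgeR (3 before adjustment). All 7 were above 0, as were 54.4% of all genes, with a median of 0.39, and HFE, an iron regulator that pairs with B2M, had 0.77 ± 0.21 (edgeR adjusted p = 0.0634). Of 6 genes of class I turnover 0 passed with edgeR (2 before adjustment), with a median of 0.27. Over these 6 lists, 43 genes were tested. In Ribo-seq 2 of them rose and 1 fell, against 1.88% and 1.67% of all genes, and 17 had p under 0.05 before adjustment, against 12.6% of all genes higher and 11.3% lower. In RNA 0 passed with edgeR and 7 had p under 0.05 before adjustment, against 11.8% higher and 13.5% lower. In TE 0 passed with edgeR and 13 had p under 0.05 before adjustment, against 13.2% higher and 9.48% lower. CALR had a TE change of 0.71 ± 0.16 (edgeR adjusted p = 0.0578).

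**Figure D5:**
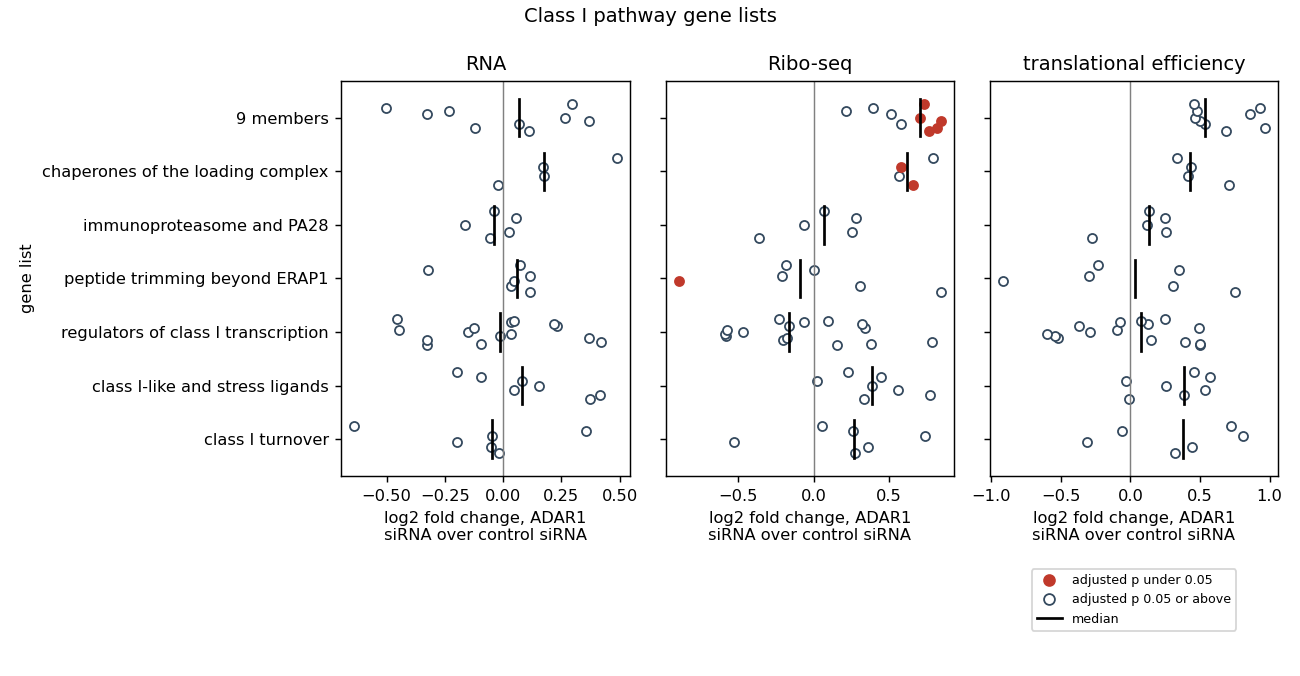
Log2 fold change of ADAR1 siRNA over control siRNA for each gene of the class I members and of the 6 pathway lists, by edgeR; points are genes, bars are list medians. The footprint medians of the members (0.70) and the loading chaperones (0.62) lie above those of the other lists.

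Across the 8 libraries, centred within each assay, genes whose scaled counts followed the summed heavy chains most closely included MRPS6 (r = 0.998), PSAP (r = 0.994), APMAP (r = 0.991) and GOLM1 (r = 0.991), among 9733 genes. ERAP1 (r = 0.938) and B2M (r = 0.938) were number 193 and 198, and TAP1 (r = 0.756), TAP2 (r = 0.601) and TAPBP (r = 0.447) followed farther down. These points share libraries and scaling, and r is a description.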

How the data were processed

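MDA-MB-231 lysates were measured by RNA sequencing (Input) and Ribo-seq in 2 libraries per group. The authors deposited estimated counts, of which 87.0% to 90.1% were whole, and TPM for 19892 genes, and a TE that is the ratio of Ribo-seq TPM to Input TPM. Per the submitters' processing notes, cutadapt, Bowtie2, STAR and featureCounts were used with GRCh38 (hg38); no version or role is given in the sources used here. Totals per library are given above, and intervals cover the spread between libraries only.

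Estimated counts were rounded and tested with edgeR 4.0.16 (TMM scaling, filterByExpr, quasi-likelihood test, Benjamini-Hochberg threshold 0.05) for RNA and for footprints apart, and for TE as the interaction of assay and siRNA over all 8 libraries. SE is the size of the log2 fold change over the root of F. TPM was used for levels. Between 2 and 2 libraries an exact two-sided permutation test cannot go below p = 0.333, so none was used. Alternatives were DESeq2 1.42.0, limma-voom and limma (3.58.1) on log2 TPM, other scalings and filters, a replicate block and leaving out each library. Steps were tested on simulated data. Of the table's symbols, 19669 matched RefSeq and 223 did not.

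The members and lists were chosen with earlier results of these data known. Named genes are the members, ADAR, the genes of smallest p in each list and the 5 of highest r with the summed heavy chains; of these 2 are not reported here.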

Additional observations from a re-analysis of the deposited data

Results flagged for a closer look

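For HLA-C, TAP1 and TAP2 both ADAR1 siRNA libraries lay below both control libraries in RNA and above them in footprints, in scaled counts. They were picked for this pattern, which 7.57% of the 11743 genes tested in both assays had. In TPM the TAP2 footprint groups overlapped. Counts of TAP1 and of TAP2 were whole in 4 of 4 Input libraries and in 0 of 4 Ribo-seq libraries, so some of their footprints were divided between genes. No RNA change passed (edgeR adjusted p = 0.413, 0.104 and 0.0972), the footprint changes of TAP1 and TAP2 did not pass (0.124 and 0.446), and leaving out replicate 1 of ADAR1 siRNA Ribo-seq gave TAP2 a footprint change of 0.03. The interaction of assay and siRNA was 0.97 on the log2 scale for HLA-C (edgeR adjusted p = 0.0534), 0.86 for TAP1 (edgeR adjusted p = 0.0641) and 0.48 for TAP2 (edgeR adjusted p = 0.162). The difference between the assays thus passed the threshold for 0 of the 3 genes by edgeR, with 3 of 3 at an unadjusted p under 0.05. With DESeq2 it passed for HLA-C and TAP1. With 2 libraries a group, 29.7% of all genes were lower in RNA without overlap, and 30.1% were higher in footprints without overlap.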

How the results depend on the processing

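The number of members whose footprints passed was 5, and 4 to 7 under count-based alternatives that kept all libraries; leaving out 1 library gave 0 to 9. With limma on log2(TPM + 1) and log2(TPM + 0.1) it was 0. The 5 members that passed with edgeR then had limma adjusted p of 0.0654 to 0.0974 and 0.0596 to 0.105. The other members had limma adjusted p of 0.109 to 0.758 and 0.113 to 0.760. Leaving out 1 library gave 0 to 6 members in RNA and 0 to 8 in TE. In RNA 1 member passed with DESeq2, and in TE 5 with DESeq2 and 4 with no filter. Over all genes, RNA calls numbered 32, against 11 with upper-quartile scaling, 449 with DESeq2, 95 with no filter, 73 with a mean count of at least 50, 14 with all 8 libraries in one fit and 0 to 5420 without 1 library. Footprint calls numbered 425, against 978 with DESeq2, 250 with limma-voom, 1693 with no filter, 1936 with all 8 libraries in one fit and 77 to 3415 without 1 library. TE calls numbered 6, against 982 with DESeq2, 0 with limma-voom (2885 at an unadjusted p under 0.05), 854 with no filter, 2 with a mean count of at least 50 and 0 to 2252 without 1 library. The summed heavy chains had a footprint change of 0.61 to 0.82 without 1 library (adjusted p up to 0.351), and a TE change that passed at 0.70 with DESeq2 and 0.69 with no filter and ran from 0.56 to 0.84 without 1 library. The RNA change of HLA-F ran from -0.14 (without ADAR1 siRNA Input replicate 2) to 0.74 without 1 library, and the footprint change of TAPBP from -0.12 (without ADAR1 siRNA Ribo-seq replicate 1) to 0.73. The cause was not tested.

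The sources used here do not say whether replicate numbers pair the libraries, and the main fits did not pair them. Deviations of same-numbered libraries had r = 0.03 between the Input groups and r = 0.16 between the Ribo-seq groups, and r = 0.42 between Input and Ribo-seq with ADAR1 siRNA and r = 0.01 with control siRNA. With a replicate block, calls over all genes numbered 1095 in RNA, 2102 in footprints and 715 in TE, and members called numbered 2, 7 and 3, and the TE change of the summed heavy chains was 0.70 and passed (edgeR adjusted p = 0.0336). Counts of HLA-F RNA limit its RNA and TE values.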
